A study of Mus musculus with 8 samples.

Results

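The thioredoxin, sulfiredoxin and peroxiredoxin system was followed as 10 genes named by symbol: *Srxn1*, *Txnrd1*, *Txn1*, *Prdx1*, *Prdx2* and *Prdx6*, whose proteins work mainly in the cytosol, and *Txnrd2*, *Txn2*, *Prdx3* and *Prdx5*, whose proteins work in mitochondria. A gene was included where the RefSeq accession of a count target mapped to its symbol. This gave 9 of the 10 among 23930 targets, 5 cytosolic and 4 mitochondrial, and all 9 were among the 14601 targets with enough counts to test. *Prdx1* had no matched target and was not analysed here. The cells were sinusoidal endothelial cells of the liver, sorted by flow cytometry for dim CD45, high STAB2 and high CD146 from wild type female Balb/c mice. The groups were 4 mice given iron citrate (150 µg) into a vein and 4 mice given 0.05 M citrate buffer by the same route, each sampled at 5 h, with 1 library per mouse. RNA was counted with an amplicon panel (Ion AmpliSeq), in which a gene is read through a short amplified stretch, so a level is that stretch's share of the library's counts, given as CPM, and levels of different genes are not comparable with each other.

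Peroxiredoxins are thiol enzymes that reduce hydrogen peroxide and organic peroxides through a reactive cysteine. Thioredoxin reduces most oxidised peroxiredoxins again, and thioredoxin reductase, a selenoprotein, recharges thioredoxin with electrons from NADPH. Sulfiredoxin uses ATP to rescue peroxiredoxins whose cysteine has been oxidised too far for thioredoxin to repair. The cytosol and the mitochondrial matrix each hold their own reductase and thioredoxin, encoded by separate genes. Genes of the cytosolic arm are known targets of NRF2, the transcription factor that acts through antioxidant response elements, and the title of the study concerns iron signalling that does not depend on it.

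The promoters show what the members that rose and their mitochondrial counterparts carry in front of their starts. RefSeq windows (GRCm38.p6) were at hand for 9 of the 10 members, that of *Prdx6* being the exception, and the 250 bases before each start were searched on both strands for TGACNNNGC, the core of the antioxidant response element, for TGAGNNNGC, a variant of that core, and for TGAGTCA, an AP-1 type element that can overlap either of them. The windows of *Srxn1*, *Txnrd1* and *Txn1* and of the mitochondrial *Txnrd2* and *Txn2* are given 5′ to 3′ on the strand of the gene, with motif matches in capitals. For *Txnrd1* the window of the second of 3 RefSeq starts is shown. That start lies 1 base from the GENCODE M21 start of the transcript that labels its count target. Counts of a short stretch do not show which start was used.
Srxn1, chr2:152105274-152105523, plus strand: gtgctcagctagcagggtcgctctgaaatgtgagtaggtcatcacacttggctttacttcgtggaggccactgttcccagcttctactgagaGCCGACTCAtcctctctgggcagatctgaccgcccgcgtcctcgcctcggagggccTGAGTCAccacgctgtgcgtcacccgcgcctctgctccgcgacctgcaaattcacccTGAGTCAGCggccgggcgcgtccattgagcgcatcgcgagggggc
Txnrd1, chr10:82858956-82859205, plus strand: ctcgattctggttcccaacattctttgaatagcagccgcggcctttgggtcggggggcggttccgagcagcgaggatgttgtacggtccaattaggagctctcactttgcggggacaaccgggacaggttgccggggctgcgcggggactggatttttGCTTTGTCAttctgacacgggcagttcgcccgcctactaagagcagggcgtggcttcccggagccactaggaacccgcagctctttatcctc
Txn1, chr4:57956412-57956661, minus strand: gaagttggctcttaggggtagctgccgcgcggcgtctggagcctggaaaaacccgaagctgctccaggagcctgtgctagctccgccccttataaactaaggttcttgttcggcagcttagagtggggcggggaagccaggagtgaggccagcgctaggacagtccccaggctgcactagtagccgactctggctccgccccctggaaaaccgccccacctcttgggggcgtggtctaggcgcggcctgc
Txnrd2, chr16:18426167-18426416, plus strand: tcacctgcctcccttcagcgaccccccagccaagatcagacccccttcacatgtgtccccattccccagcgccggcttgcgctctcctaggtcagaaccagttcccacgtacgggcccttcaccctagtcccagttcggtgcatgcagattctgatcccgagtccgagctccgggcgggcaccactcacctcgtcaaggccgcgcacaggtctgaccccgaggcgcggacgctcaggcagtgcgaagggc
Txn2, chr15:77928995-77929244, minus strand: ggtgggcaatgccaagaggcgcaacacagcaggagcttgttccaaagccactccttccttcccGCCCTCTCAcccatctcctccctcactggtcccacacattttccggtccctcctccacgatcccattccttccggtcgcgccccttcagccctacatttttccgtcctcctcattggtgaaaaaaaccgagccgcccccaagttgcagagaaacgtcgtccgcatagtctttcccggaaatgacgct

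*Srxn1* held TGAGTCA 2 times and TGAGNNNGC 2 times, and the matches nearest to the start, which overlap, lie 45 to 37 bases before it. *Txnrd1* held 1 TGACNNNGC on the minus strand, 92 to 84 bases before the second start, and the windows of its other starts held none of the motifs. *Txn1* and *Txnrd2* held none of the 3 motifs, and *Txn2* held 1 TGAGNNNGC. The windows of *Prdx2*, *Prdx3* and *Prdx5* held none, and that of *Prdx1* held TGACNNNGC 1 time and TGAGTCA 2 times. Of all 32851 promoter windows of that length, 10.2% held TGACNNNGC, 14.4% held TGAGNNNGC and 4.46% held TGAGTCA. A match is a description of these letters and not of a bound site, and elements further away were not searched.

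**Figure D1:**
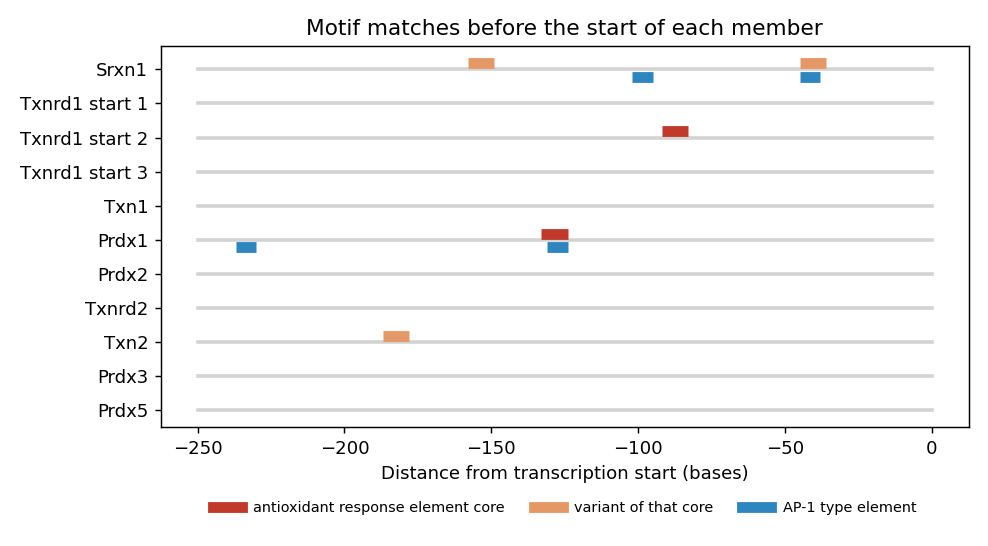
Positions of motif matches (coloured bars) in the 250 bases before each RefSeq start, with the distance from the start in bases on the horizontal axis and each member or start on its own line. *Srxn1* carries matches of the variant core and of the AP-1 type element, *Txnrd1* carries 1 antioxidant response element core before its second start, and *Txn1*, *Txnrd2*, *Prdx2*, *Prdx3* and *Prdx5* carry none.

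Counts on targets came to between 9010874 and 11061968 in the iron citrate libraries and between 7969520 and 11314659 in the citrate buffer libraries. Citrate buffer replicate 1 stood apart: the median of its correlations with libraries of the same group was 0.839, where the other libraries had 0.962 to 0.981, and 2.27% of its counts fell on olfactory and vomeronasal receptor targets, against 0.276% to 0.923% elsewhere. The 10 sinusoidal endothelial markers summed to between 22550 and 24220 CPM after iron citrate and between 13730 and 27600 CPM after buffer, with the lowest sum in citrate buffer replicate 1. Summed markers overlapped between the groups for 8 Kupffer cell genes (196.5 to 507 CPM after iron citrate and 117 to 309 CPM after buffer), for 7 hepatocyte genes (329 to 679 CPM after iron citrate and 403 to 814 CPM after buffer) and for 6 neutrophil genes (178 to 226 CPM after iron citrate and 106 to 381 CPM after buffer). The hepatocyte overlap rests on iron citrate replicate 1. The other iron citrate libraries, at 375, 361 and 329 CPM, lay below every buffer library. The neutrophil overlap rests on citrate buffer replicate 1, since the other buffer libraries, at 155, 106 and 140.3 CPM, lay below every iron citrate library. Summed markers overlapped as well for 5 lymphocyte genes (635 to 755 CPM after iron citrate and 592 to 1062 CPM after buffer). That overlap rests on citrate buffer replicate 4, since the other buffer libraries, at 1062, 889 and 815 CPM, lay above every iron citrate library. The groups also overlapped for 3 erythroid genes (11.4 to 14.4 CPM after iron citrate and 11.3 to 29.6 CPM after buffer), 4 platelet genes (16.7 to 24.7 CPM after iron citrate and 17.5 to 31.8 CPM after buffer) and 5 stellate cell genes (356 to 556 CPM after iron citrate and 207 to 588 CPM after buffer). None of the measured markers was at 0 in all libraries and none was called. The part of other cell types in the results was not tested.

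Iron citrate was followed by higher mRNA of 3 of the 5 measured cytosolic members and of none of the 4 mitochondrial ones. Sulfiredoxin rose 17.5-fold, the cytosolic thioredoxin reductase 10.4-fold and cytosolic thioredoxin 1.93-fold. The 2 measured cytosolic peroxiredoxins, *Prdx2* and *Prdx6*, did not pass the test. In bulk RNA such as this, fewer cells of a type and less RNA per cell cannot be told apart. Over all tested targets, 0.527% were called higher after iron citrate at an adjusted p under 0.05 in edgeR's quasi-likelihood test, and 0.555% were called in either direction. These are 77 higher and 4 lower targets, against 221 and 38 without citrate buffer replicate 1. No member was called lower, where 0.0274% of all targets were. At an unadjusted p under 0.05 the count of members was again 3 of 9, beside 14.6% of all targets. The median log2 fold change was 0.95 over the 5 cytosolic members, 0.02 over the 4 mitochondrial ones (0.05 without *Prdx5*, which is also found in peroxisomes and the cytosol) and -0.01 over all tested targets. With library totals or upper-quartile factors in place of TMM factors, the median of all targets shifted to -0.11 and -0.12 and the mitochondrial median to -0.08 and -0.09, so its sign carries no information.

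**Figure D2:**
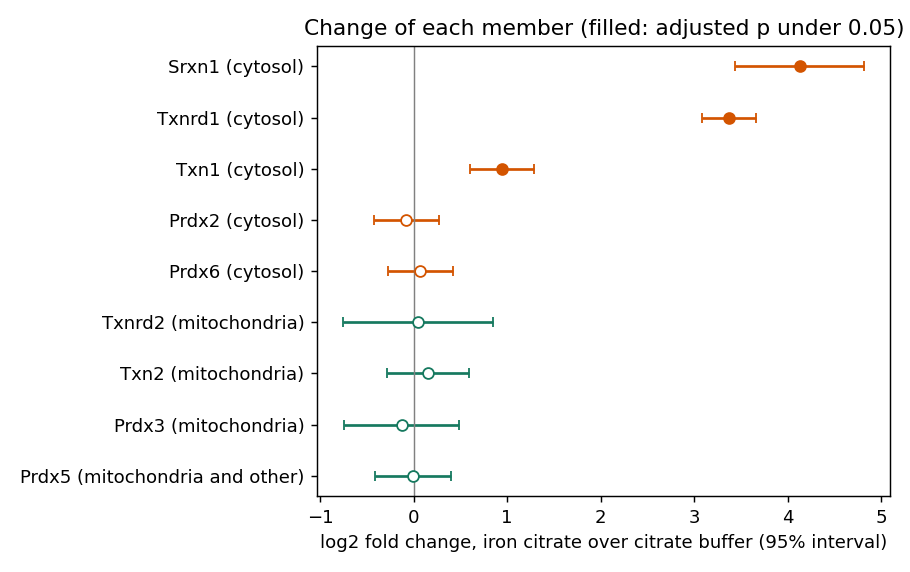
Log2 fold change of each measured member, iron citrate over citrate buffer, with 95% intervals from edgeR (orange, cytosolic; green, mitochondrial; filled, adjusted p under 0.05). *Srxn1*, *Txnrd1* and *Txn1* lie to the right of 0, and the intervals of the other 6 members include 0.

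*Srxn1* encodes sulfiredoxin, the enzyme that reactivates overoxidised peroxiredoxins. It had 33.0, 30.5, 38.7 and 40.1 CPM in iron citrate replicates 1 to 4, against 1.33, 1.34, 3.21 and 2.25 CPM in citrate buffer replicates 1 to 4. Every iron citrate library thus lay above every buffer library, which was true, in either direction, of 8.64% of all tested targets and of 6.36% in this direction. The mean was 35.6 ± 4.53 CPM after iron citrate and 2.03 ± 0.894 CPM after buffer (SD, n = 4 each), a fitted 17.5-fold difference with a 95% interval of 10.8 to 28.2 (log2 fold change 4.13, SE 0.31, edgeR adjusted p = 0.000213). The buffer values rest on 14, 16, 36 and 17 counts. In citrate buffer replicate 1 the exact binomial interval around 1.53 CPM before TMM scaling ran from 0.836 to 2.57 CPM, which covers counting error only. By its log2 fold change *Srxn1* ranked 5 among the 14601 tested targets.

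*Txnrd1* encodes the cytosolic thioredoxin reductase, the selenoprotein that passes electrons from NADPH to thioredoxin. Its level was 339.8, 344, 319 and 335 CPM in the 4 iron citrate libraries and 36.0, 31.0, 33.8 and 28.2 CPM in the 4 buffer libraries. The groups were far apart and the libraries within each group close together, including citrate buffer replicate 1. The mean was 335 ± 11.1 CPM after iron citrate and 32.3 ± 3.39 CPM after buffer (SD, n = 4 each), a fitted 10.4-fold difference with a 95% interval of 8.46 to 12.7 (log2 fold change 3.37, SE 0.13, edgeR adjusted p = 2.16e-06). By its log2 fold change *Txnrd1* ranked 8 among the 14601 tested targets. The intervals of the *Srxn1* and *Txnrd1* folds overlap, and whether they differ was not tested.

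*Txn1* encodes cytosolic thioredoxin, the small dithiol protein that reduces peroxiredoxins, ribonucleotide reductase and other clients. It stood at 728, 799.9, 998 and 816 CPM after iron citrate and at 380.5, 399, 492 and 463 CPM after buffer. The groups did not overlap here either. Citrate buffer replicate 1 was lowest on these TMM-scaled values, though before scaling it had 437 CPM against 422.5 CPM in citrate buffer replicate 2. The mean was 836 ± 115 CPM after iron citrate and 434 ± 52.5 CPM after buffer (SD, n = 4 each), a fitted 1.93-fold difference with a 95% interval of 1.52 to 2.44 (log2 fold change 0.95, SE 0.15, edgeR adjusted p = 0.0218). This call was lost when any 1 library other than citrate buffer replicate 1 was left out (adjusted p = 0.0531 to 0.142), and the log2 fold change then lay between 0.85 and 1.01. Without citrate buffer replicate 1 it was 0.89 (adjusted p = 0.0027), and the *Srxn1* and *Txnrd1* values were 3.97 and 3.43.

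**Figure D3:**
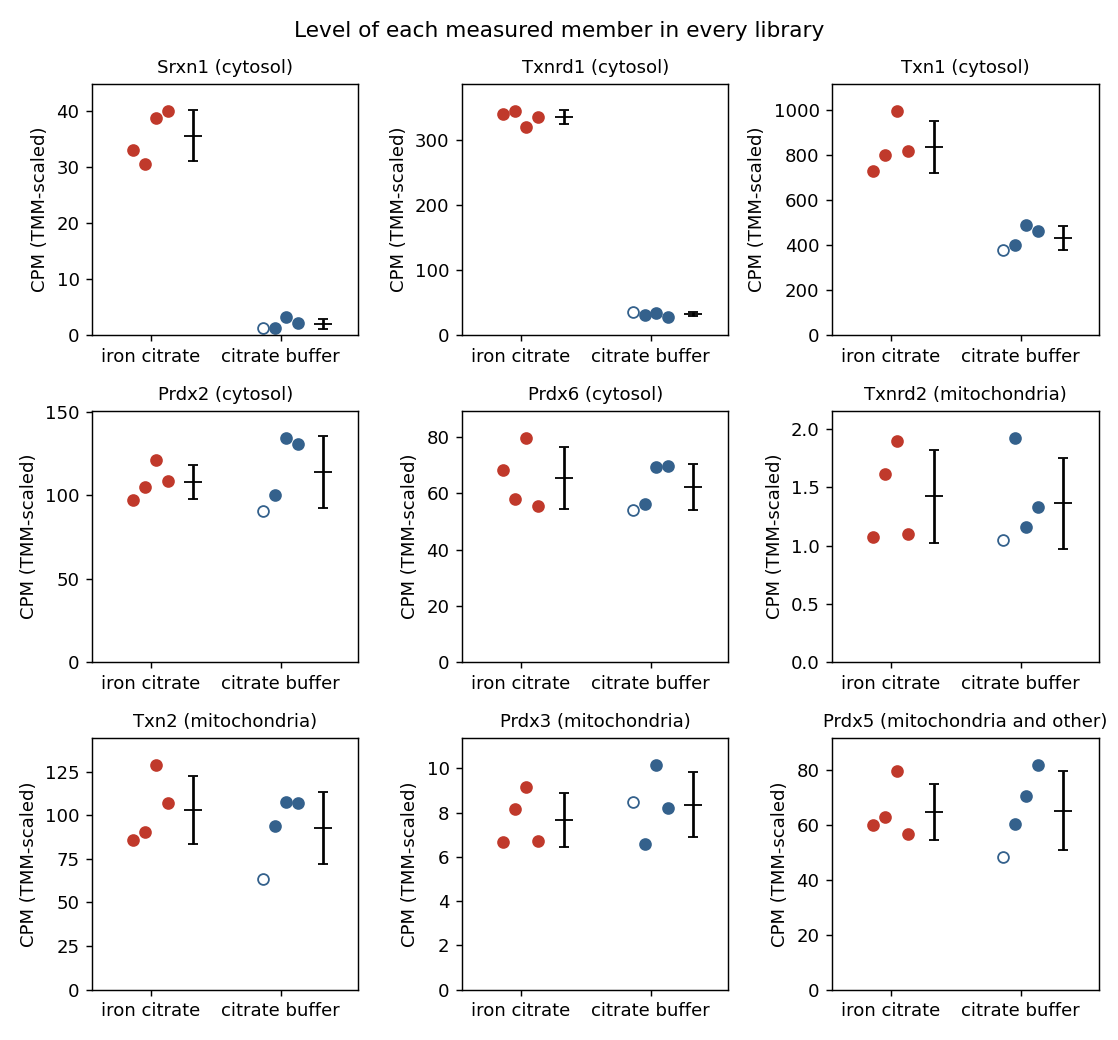
TMM-scaled CPM of the 9 measured members in each library, iron citrate (red) left of citrate buffer (blue, with replicate 1 open), replicates 1 to 4 from left to right, and the mean ± SD of each group (n = 4) as a bar beside the points. For *Srxn1*, *Txnrd1* and *Txn1* the lowest iron citrate library lies above the highest buffer library, and for the other 6 members the groups overlap.

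Among the peroxiredoxins, *Prdx2* encodes an abundant cytosolic enzyme and a substrate of sulfiredoxin. It was at 97.3, 105, 121 and 109 CPM after iron citrate and at 90.9, 100.1, 134 and 130.5 CPM after buffer, so the iron citrate values lay within the range of the buffer values. The log2 fold change was -0.08 with a 95% interval of -0.42 to 0.27 (edgeR adjusted p = 0.809). *Prdx2* is also a main protein of red blood cells, whose globin genes were not analysed here. *Prdx6*, a peroxiredoxin with a single active cysteine and a phospholipase activity, was at 68.3, 57.9, 79.7 and 55.7 CPM after iron citrate and at 54.3, 56.1, 69.2 and 69.6 CPM after buffer. These ranges overlapped, and the log2 fold change was 0.07 with a 95% interval of -0.28 to 0.42 (adjusted p = 0.83). Its near copy *Prdx6b* could share reads with it, which makes the *Prdx6* values uncertain to that extent. *Prdx6b* had 14.5 CPM in citrate buffer replicate 1, against 2.21 to 5.18 CPM in the iron citrate libraries and 1.86 to 5.76 CPM in the other buffer libraries.

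The mitochondrial counterparts overlapped between the groups throughout. *Txnrd2*, the mitochondrial thioredoxin reductase and likewise a selenoprotein, was read at 11, 14, 18 and 12 counts after iron citrate and at 11, 23, 13 and 10 counts after buffer. Its mean was 1.42 ± 0.40 CPM after iron citrate and 1.36 ± 0.389 CPM after buffer (SD, n = 4 each). The log2 fold change was 0.05, with a 95% interval of -0.75 to 0.85 (edgeR adjusted p = 0.953). Differences inside that interval are compatible with these counts, and the 3.37 of *Txnrd1* lies outside it. *Txn2*, the thioredoxin of the matrix, was at 85.9, 90.5, 129 and 107 CPM after iron citrate and at 63.5, 93.6, 108 and 107 CPM after buffer. Citrate buffer replicate 1 was the lowest of all, and the log2 fold change was 0.15 with a 95% interval of -0.29 to 0.59 (adjusted p = 0.696).

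*Prdx3*, the matrix peroxiredoxin that *Txn2* reduces, was at 6.65, 8.18, 9.14 and 6.71 CPM after iron citrate and at 8.48, 6.60, 10.2 and 8.22 CPM after buffer. The iron citrate values lay inside the range of the buffer values, and the log2 fold change was -0.13 with a 95% interval of -0.74 to 0.49 (edgeR adjusted p = 0.83). *Prdx5*, a peroxiredoxin of mitochondria, peroxisomes and the cytosol, was at 59.9, 62.9, 79.6 and 56.6 CPM after iron citrate and at 48.5, 60.2, 70.4 and 81.9 CPM after buffer. Here too the iron citrate values lay within the buffer range, and the log2 fold change was -0.01 with a 95% interval of -0.42 to 0.40 (adjusted p = 0.982). A p that misses the threshold does not show that these levels were equal. The 95% intervals give the differences compatible with these counts in this fit, and they are no firm limit.

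The cytosolic and mitochondrial arms were compared within each library through the ratio of counts of a cytosolic member to its counterpart, which does not depend on the scaling of the libraries. The ratio of *Txnrd1* to *Txnrd2* was 302, 206, 164 and 292 after iron citrate, against 32.9, 15.8, 28.2 and 20.3 after buffer. On the log2 scale it averaged 7.87 ± 0.42 after iron citrate and 4.55 ± 0.48 after buffer (SD, n = 4 each), a difference of 3.32 (two-sided exact permutation p = 0.0286, 0.0429 adjusted over 3 pairs). The ratio of *Txn1* to *Txn2* was 8.47, 8.83, 7.75 and 7.62 after iron citrate and 5.99, 4.26, 4.57 and 4.34 after buffer. Its log2 mean was 3.03 ± 0.10 after iron citrate and 2.25 ± 0.23 after buffer, a difference of 0.78 (exact permutation p = 0.0286, adjusted 0.0429). In these pairs the groups did not overlap, and 0.0286 is the smallest p that 4 against 4 libraries can give. The pairs were chosen with earlier results of these data known, and the ratios use the same counts as the calls above. They are thus no separate support for those calls.

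For the peroxiredoxins, the ratio of *Prdx2* to *Prdx3* was formed after the data were seen, in place of *Prdx1* to *Prdx3*. It was 14.5, 12.7, 13.2 and 16.1 after iron citrate and 10.7, 15.1, 13.2 and 15.8 after buffer. The groups overlapped, and the log2 difference was 0.06 (3.82 ± 0.15 after iron citrate and 3.76 ± 0.25 after buffer, exact permutation p = 0.8, adjusted 0.8). The reductase and thioredoxin ratios thus differed between the groups by more than the spread between libraries and the peroxiredoxin ratio did not, and whether the pairs differ from each other was not tested. The adjusted p of the reductase and thioredoxin ratios was 0.0857 without iron citrate replicate 1 or 2, with differences of 3.20 and 3.38 for the reductases and 0.76 and 0.74 for the thioredoxins.

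**Figure D4:**
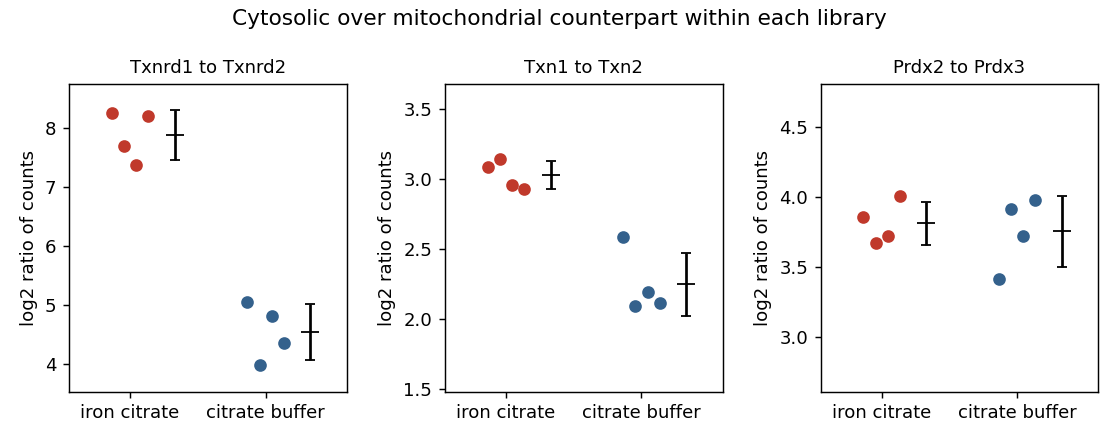
Log2 ratio of counts of a cytosolic member to its mitochondrial counterpart in each library (points, replicates 1 to 4 from left to right), iron citrate left of citrate buffer, with the mean ± SD (n = 4) beside the points. The *Txnrd1* to *Txnrd2* ratio is higher after iron citrate by 3.32 and the *Txn1* to *Txn2* ratio by 0.78, without overlap, while the *Prdx2* to *Prdx3* ratios overlap.

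Thioredoxin reductase takes its electrons from NADPH, and some of the genes listed for its supply in the cytosol were also higher. Of 7 cytosolic genes of NADPH supply, 3 rose, none fell and 4 did not pass, with a median log2 fold change of 1.184, against -0.01 over all tested targets and 0.527% called higher. *Pgd*, the phosphogluconate dehydrogenase that makes NADPH in the pentose phosphate pathway, was at 141, 139, 147.5 and 142 CPM after iron citrate and at 20.1, 32.2, 36.9 and 40.4 CPM after buffer, a fitted 4.39-fold rise (SE 0.20 on the log2 scale, edgeR adjusted p = 0.00094). The sugar-shuffling enzymes *Tkt* and *Taldo1* of the same pathway, which do not make NADPH themselves, rose 2.27-fold (edgeR adjusted p = 0.00652) and 2.35-fold (adjusted p = 0.0168). With citrate buffer replicate 2 left out, or any of the iron citrate libraries, the *Taldo1* call was lost (adjusted p = 0.0669 to 0.106). *G6pdx*, which starts the pathway, was at 43.0 ± 3.06 CPM after iron citrate and 41.2 ± 8.66 CPM after buffer (SD, n = 4 each, edgeR adjusted p = 0.853).

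In mitochondria, 7 genes of NADPH supply were measured, of which 5 could be tested and 0 were called, which is at the share of 0.555% over all targets. Their median log2 fold change was 0.03. The malic enzyme *Me2*, which had the highest mean count of these, was at 77.4 ± 6.997 CPM after iron citrate and 84.1 ± 8.14 CPM after buffer (SD, n = 4 each, edgeR adjusted p = 0.622). *Me3* and *Aldh1l2* were too low to test.

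Of 24 measured partners of the system 0 were called, a count at the share over all targets (0.555%), with a median log2 fold change of -0.05. Among them were the glutaredoxins *Glrx* and *Glrx2*, the methionine sulfoxide reductases and other thioredoxin-fold proteins. The listed *Glrx3*, *Glrx5* and *Tmx2* had no matched target. The partner with the highest mean count, a rule for naming and not a ranking of RNA levels, was *Txnip*, which binds and inhibits thioredoxin. It was at 1520, 1267, 1155 and 1295 CPM after iron citrate and at 1233, 1334, 1785 and 1527 CPM after buffer, and these ranges overlapped (log2 fold change -0.17, edgeR adjusted p = 0.592). Outside the naming rule, the peroxiredoxin of the endoplasmic reticulum, *Prdx4*, was at 4.70 ± 0.566 CPM after iron citrate and 5.88 ± 1.37 CPM after buffer (SD, n = 4 each, edgeR adjusted p = 0.573), and the third thioredoxin reductase, *Txnrd3*, known from testis, at 3.30 ± 0.983 CPM after iron citrate and 1.95 ± 0.629 CPM after buffer (n = 4 each, edgeR adjusted p = 0.335).

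Of 6 measured clients of thioredoxin 5 could be tested, and 0 were called. Their median was 0.03 on the log2 scale. Of 9 genes of selenocysteine synthesis and insertion, which the thioredoxin reductases need, 0 were called, with a median of 0.02. With 0.555% of all targets called, counts of 0 in lists this short are at the background share. The gene named by its mean count, *Secisbp2l*, was at 89.4 ± 10.7 CPM after iron citrate and 95.1 ± 11.6 CPM after buffer (SD, n = 4 each, edgeR adjusted p = 0.751).

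**Figure D5:**
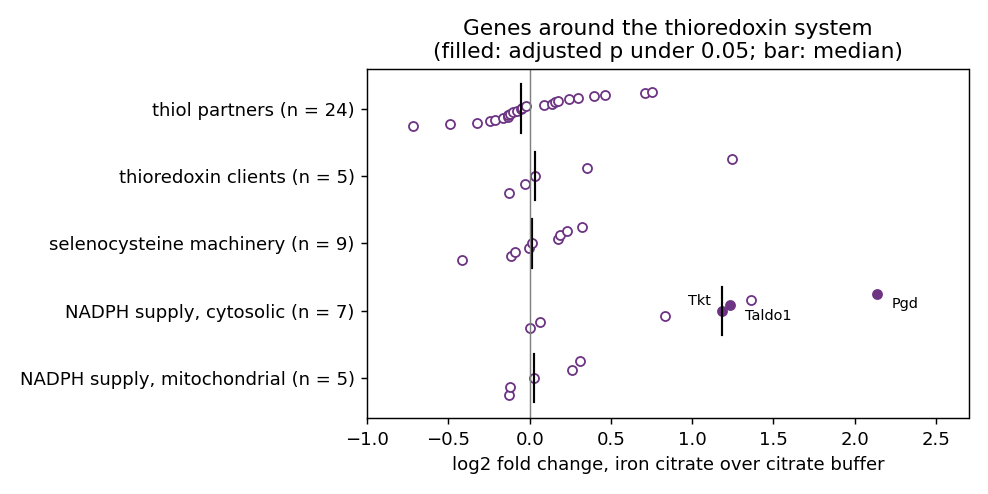
Log2 fold change, iron citrate over citrate buffer, of each tested gene (points) in 5 lists around the system, with the median of each list as a bar and genes with an adjusted p under 0.05 filled and named. The filled points are *Pgd*, *Tkt* and *Taldo1*, of cytosolic NADPH supply, and the medians of the other 4 lists lie between -0.05 and 0.03.

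To see which other genes followed the same course, each tested gene with a symbol and a mean of at least 5 CPM was set against *Srxn1* and *Txnrd1* by the root mean square difference in log2 CPM, after centring each gene on its own mean over the 8 libraries. The glutathione synthesis gene *Gclm*, which encodes the modifier subunit of glutamate-cysteine ligase, was nearest to each of them, at 0.32 for *Srxn1* and 0.34 for *Txnrd1*. Next to *Srxn1* came the quinone reductase *Nqo1* (0.40), the calreticulin paralogue *Calr3* (0.46), the nuclear protein *Pir* (0.46) and the metallothionein *Mt1* (0.56). Next to *Txnrd1* came *Calr3* (0.34), the aldo-keto reductase *Akr1b8* (0.38), the aldehyde oxidase *Aox1* (0.46) and the iron exporter *Slc40a1* (0.47). These distances rest mostly on the difference between the groups, and they say nothing of shared control. Nor do they mean equal folds. Among the 5 genes nearest to *Srxn1*, folds of group means ran from 10.1 (*Mt1*) to 31.6 (*Pir*), against 17.5 for *Srxn1*. A prior count of 2 was added before the log, which shrinks differences at low levels. The mean of *Pir* after buffer was 0.733 CPM.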

How the data were processed

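Liver sinusoidal endothelial cells of 8 mice were profiled, 4 per group. The authors deposited whole-number read counts per RefSeq target, 1 file per library, from Ion AmpliSeq libraries per the labels' protocols. Per the submitters' processing notes, HTSeq 0.6.0 and DESeq2 1.18.1 were among the tools. Aligner, build and read filters: not given in the sources used here. The series' design text speaks of more mice per group, and those were not analysed here. HTSeq's summary lines (2.15% to 4.60% of reads) were left out. Accessions were paired with symbols through RefSeq and GENCODE M21, and 1368 of 23930 targets had no match.

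Counts were tested with edgeR 4.0.16 in R 4.3.3: filterByExpr (14601 targets kept), TMM factors, robust quasi-likelihood F-test, Benjamini-Hochberg adjustment over all tested targets, threshold 0.05. CPM use TMM-scaled totals. SE were derived from the F statistic. Ratios had 0.5 added to each count and were compared by an exact permutation of libraries, counting arrangements with at least the observed absolute difference. The edgeR, DESeq2 and limma steps were tested on simulated data. There edgeR called 33 of 100 targets changed 2-fold and 76 of 100 changed 4-fold, with 4 unchanged targets called. DESeq2 called 48 and 85, with 39 unchanged targets called, and limma-voom 26 and 73, with 3. Most true 2-fold changes were thus missed. Alternatives were DESeq2 1.42.0, voom with sample weights (limma 3.58.1), other scaling factors and filters, a replicate block, a receptor-share covariate and left-out libraries. For ratios they were the count added, the block and left-out libraries.

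The members, lists and tests were chosen with earlier results of these data known. Named are all members, the called genes of each list or else its tested gene with the highest mean count, and the 5 genes nearest to *Srxn1* and to *Txnrd1*. A gene that this rule names is not reported here. Pairs of libraries differed by more than sampling noise (chi-square per degree of freedom at least 6.71). The labels give 1 mouse per library and no further detail on independence. A p-value thus sets the group difference only against the spread between the samples at hand, part of which may be technical.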

Additional observations from a re-analysis of the deposited data

Results flagged for a closer look

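Of 38 groups of 4 libraries examined for a library far from the other 3, 2 were marked, and chance marks about 1 in 20. Neither concerns a member. The transaldolase gene *Taldo1* had 224.9 CPM in iron citrate replicate 3, against 171.8, 175.8 and 179.7 CPM in the other iron citrate libraries. The selenocysteine gene *Secisbp2l* had 77.8 CPM in citrate buffer replicate 3, against 99.96, 100.4 and 102 CPM in the other buffer libraries.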

How the results depend on the processing

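*Srxn1* and *Txnrd1* passed the threshold in all 18 alternatives, with log2 fold changes of 3.67 to 4.46 and 3.26 to 3.45. *Txn1* passed in 10, with log2 fold changes of 0.81 to 1.01 over all of them. It missed with the replicate block (adjusted p = 0.0695) and without any library except citrate buffer replicate 1. The other 6 members missed the threshold in each alternative that could be fitted, and *Txnrd2* was not tested with a mean CPM of at least 5. Members called numbered 2 to 3. The total called was 81, against 365 with DESeq2, 289 with limma-voom, 325 with the receptor share as covariate, 281 without citrate buffer replicates 1 and 2, and 46 to 259 with each library left out in turn (259 without citrate buffer replicate 1, at most 75 otherwise). These split into 77 higher and 4 lower, against 295 and 70, 246 and 43, 233 and 92, and 200 and 81 in the order given.

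Values near 0 changed sign. With upper-quartile factors, library totals, limma-voom and the covariate, the log2 fold change was -0.041, -0.025, -0.028 and -0.103 for *Prdx6* and -0.072, -0.056, -0.026 and -0.077 for *Txnrd2*. With limma-voom, the covariate and without citrate buffer replicates 1 and 2 it was -0.078, -0.088 and -0.057 for *Txn2*, and in the last of these fits -0.086 for *Prdx6*. *Prdx5* was at 0.004 with the replicate block, and *Secisbp2l* at 0.009 with the covariate and 0.006 without citrate buffer replicates 1 and 2. With each library left out in turn the ranges were -0.17 to 0.007 for *Prdx2*, -0.037 to 0.14 for *Prdx6*, -0.11 to 0.27 for *Txnrd2* and -0.13 to 0.12 for *Prdx5*. The cause was not tested.

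With each library left out in turn the ratio differences were 3.14 to 3.49 for *Txnrd1* to *Txnrd2*, 0.73 to 0.89 for *Txn1* to *Txn2* and -0.057 to 0.13 for *Prdx2* to *Prdx3* (-0.035 without citrate buffer replicates 1 and 2). The first 2 were 3.29 and 0.87 without citrate buffer replicates 1 and 2 (adjusted p = 0.1), where 15 arrangements allow no p under 0.0667.

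The labels do not say whether the replicate numbers pair the libraries. The correlation of deviations of same-numbered libraries was -0.0003, 0.18, 0.61 and -0.32. Of the iron citrate libraries, 1 of 4 correlated best with its own number. So few libraries cannot decide whether they were paired. With the replicate block 43 targets and 2 members were called, and the ratio differences were 3.32 and 0.78 (adjusted p = 0.188), where sign flips of 4 pairs allow no p under 0.125.

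Depth limits *Txnrd2*, read at 10 to 23 counts per library, and the buffer level of *Srxn1*, read at 14 to 36 counts. Reads without molecular identifiers are not independent molecules, and counting intervals cover counting error only.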

Other observations

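Within groups, the members had libraries in which most of them were high or low. Iron citrate replicate 3 was the highest of its group for 7 of the 9 measured members, and it was the lowest for *Txnrd1*. Citrate buffer replicate 1 was the lowest of its group for 7 of 9 in TMM-scaled CPM, and it was the highest for *Txnrd1*. Its TMM factor was the largest, at 1.151 against 0.94 to 1.06 elsewhere, which lowers its scaled values. Before scaling it was still the lowest for *Prdx2*, *Txn2* and *Prdx5*, and no longer for *Srxn1*, *Txn1*, *Prdx6* and *Txnrd2*. What these libraries share beyond the measures given was not tested.

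Chosen after their values were seen, 2 further genes of cytosolic NADPH supply had groups that did not overlap without passing the test. The malic enzyme *Me1* was at 54.5, 62.1, 54.4 and 61.2 CPM after iron citrate and at 40.7, 18.1, 15.1 and 16.2 CPM after buffer (edgeR adjusted p = 0.129). The isocitrate dehydrogenase *Idh1* was at 179, 164, 161 and 121 CPM after iron citrate and at 61.0, 95.4, 97.0 and 98.2 CPM after buffer (edgeR adjusted p = 0.137). Groups did not overlap in 8.64% of all tested targets. *Rrm2b*, the p53-inducible subunit of the thioredoxin client ribonucleotide reductase, was uneven after iron citrate, at 21.02, 26.4, 10.9 and 7.26 CPM, against 8.57, 8.02, 6.14 and 4.77 CPM after buffer (edgeR adjusted p = 0.333).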
